A study of Mus musculus with 137 samples.

Results

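The cytochrome P450 genes described here were the mouse genes whose symbol on the TempO-Seq panel has the form Cyp, a family number, a letter and a member number. Of the 94 such symbols among 21450 genes, 72 reached a summed count of 1 per library on average, and each was read by 1 probe, the one with the highest total count. By family number they comprised 3 CYP1, 35 CYP2, 6 CYP3 and 14 CYP4 genes and 14 genes of other families. The other 22 symbols were below the minimum; Cyp2a4 and Cyp7a1 with 129 counts and Cyp2a12 with 136 lay just outside it, and Cyp2j9 with 144, Cyp2b9 with 146 and Cyp2g1 with 148 just inside. Symbols with another ending, such as Cyp51, Cyp3a41a and Cyp4a12a, were not of this form. All 72 genes passed the filter on low counts, which was applied to 30146 probes.

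Female wild-type B6C3F1 mice, a cross of C57BL/6 and C3H stocks, drank water with 0, 0.1, 1.4, 5, 20, 60 or 180 ppm Cr(VI), given as sodium dichromate dihydrate, for 7 or 90 days, named days 8 and 91 here. Crypt and villus of the duodenum were dissected from fixed, paraffin-embedded sections, and RNA was counted with probe pairs ligated on their target. There were 71 crypt and 66 villus libraries from 71 mice, in 28 groups of 4 to 6. Totals ran from 1463938 to 7199801 counts with a median of 3592983, and the untreated villus libraries of day 91 were shallow, with a median of 2172694 counts (4 libraries) against 4000110 at 180 ppm. Replicates were separate mice, and crypt and villus of 1 mouse were paired by its number.

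Compartment labels were compared with marker genes. The summed enterocyte markers (14 genes, Fabp2 the most abundant) averaged 42977 CPM in untreated crypt and 76477 CPM in untreated villus at day 8, and 41159 and 75304 CPM at day 91, where CPM is counts per 1000000 of the normalized library size. Paneth markers, which belong to the crypt base, reached 20852 CPM in the untreated day 8 villus of mouse 48 against 2403 to 9709 CPM in the other 4 villi. In the untreated day 8 crypt of mouse 49 they were 2395 CPM against 8941 to 33710 CPM in the other 4, and enterocyte markers were 76933 CPM against 28415 to 45259 CPM. Both libraries thus leaned to the other compartment, and the main day 8 counts of P450 genes below are given with and without them.

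P450s are haem monooxygenases, most of them anchored in the endoplasmic reticulum, where they draw electrons from NADPH through P450 reductase; a few lie in the mitochondrial membrane and draw them through ferredoxin. CYP1 enzymes oxidize planar aromatic compounds and are induced through the aryl hydrocarbon receptor (AhR), CYP2 and CYP3 enzymes oxidize drugs, dietary compounds, fatty acids and steroids, many of them under the receptors CAR and PXR, and CYP4 enzymes hydroxylate fatty acids and eicosanoids. Other families serve sterol, bile acid, retinoid, vitamin D and steroid hormone metabolism. In the small intestine P450s are found chiefly in mature enterocytes of the villus, where they meet absorbed compounds first.

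Most of the P450 signal came from a few probes. The 10 genes with the highest mean CPM over all libraries took 85.7% of the P450 counts, and Cyp2c65, a CYP2C enzyme that oxidizes arachidonic acid, took 25.7% alone with a mean of 817 CPM. Next came Cyp3a13 (367 CPM), Cyp2b10 (332 CPM), Cyp3a11 (286 CPM), Cyp3a25 (272 CPM), Cyp4v3 (205 CPM), Cyp2d26 (185 CPM), Cyp4f16 (139.7 CPM), Cyp2c66 (122 CPM) and Cyp2s1 (82.5 CPM). The same 10 genes led in the untreated groups alone, with Cyp3a25 (358 CPM) and Cyp3a11 (354 CPM) in the other order and Cyp2c65 at 20.2% of the P450 CPM. In contrast, 33 of the 72 genes averaged under 1 CPM and 24 over 10 CPM. Each probe reads 1 short site with its own efficiency, so levels are compared between groups and not between genes, and genes of close paralog clusters (Cyp2c on chromosome 19, Cyp2d on 15, Cyp3a on 5, Cyp4a on 4 and Cyp4f on 17) may share signal.

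In untreated mice at day 91, 4 of the 5 P450 genes called between the compartments were higher in villus. Villus exceeded crypt for Cyp3a13 (1049 against 191 CPM, log2 difference 2.46, adjusted p = 3.83e-07), Cyp3a11 (744 against 140.4 CPM, 2.41, adjusted p = 0.0102), Cyp4f14 (126 against 61.2 CPM, 1.04, adjusted p = 0.0337) and Cyp2c65 (1307 against 658 CPM, 0.99, adjusted p = 0.0857), while Cyp20a1 was lower in villus (8.04 against 24.5 CPM, -1.59, adjusted p = 0.0397). These 5 calls of 72 compare with 10.6% of all 18998 genes tested, in either direction. Of all genes, 578 were called higher and 1429 lower in villus. At day 8 Cyp3a13 alone was called (623 against 244 CPM, log2 difference 1.35, adjusted p = 0.0563), against 0.205% of all genes. Calls at day 91 numbered 3 without mouse 3 and 2 without mouse 5 or 6, Cyp3a13 and Cyp3a11 being called whichever mouse was left out, and at day 8 they numbered 0 without mouse 46, 47 or 50 and 2 without mouse 49. With the mouse as a block, which pairs the compartments, 8 genes were higher in villus and 0 lower at day 8, against 1.09% and 1.38% of all genes (2.47% in either direction), and 12 were higher and 1 lower at day 91, against 2.45% and 8.66% (11.1%). The 7 further genes at day 8 were Cyp2c55 (log2 difference 1.64, adjusted p = 4.76e-04), Cyp2b10 (1.1, 0.00611), Cyp2c65 (0.86, 0.00227), Cyp2d26 (0.90, 0.0293), Cyp4v3 (1.27, 6.86e-04), Cyp3a11 (1.93, 7.44e-08) and Cyp3a25 (0.84, 0.0315). Without the libraries of mice 48 and 49 described above, 6 were higher and 1 lower at day 8. The share of all genes in that fit is not given here, so this count is not set against a background. All adjusted p-values are from the quasi-likelihood test of edgeR with the Benjamini-Hochberg procedure over all probes fitted, and 0.1 was the threshold.

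After exposure, the P450 genes called at the 2 highest doses were mostly lower, in both compartments and at both days. At 180 ppm 16 of 72 genes were lower and 0 higher in crypt at day 8, where 2.81% of all genes were lower and 0.553% higher. At day 91 in crypt 6 were lower and 0 higher (1.57% and 2.57% of all genes). DESeq2 called 11 lower and 0 higher there, with 8.63% lower and 8% higher of the 8146 genes it gave an adjusted p. A fit of that compartment and day alone called 14 lower and 0 higher, with 9.32% and 13.8% of its 13547 genes. The number of P450 genes tested in these alternatives is not given here. In villus 14 were lower and 1 higher at day 8 (3.02% and 2.11% of all genes), and 11 lower and 2 higher at day 91 (4.44% and 10.5%). The median log2 fold change of the 72 genes was -1.19 and -0.53 in crypt and -1.46 and -0.41 in villus at days 8 and 91, whereas that of all genes was -0.05, 0, -0.08 and 0.18. Of the 50 calls at 180 ppm 35 held whichever single mouse was left out, but the 13 of villus at day 91 became 7, 8 and 8 without mouse 483, 484 and 485. With DESeq2's size factors in place of TMM the median of all genes in villus at day 91 moved by -0.18 at 180 ppm (by up to 0.32 in size over all contrasts), that of the P450 genes was -0.68, and 15 P450 genes were lower and 1 higher there. Among the 39 P450 genes with a mean of at least 1 CPM the medians were -1.70, -0.97, -1.57 and -0.68. In bulk libraries, fewer cells of a type and less RNA per cell cannot be told apart.

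Every exposed library lay below every untreated one for 14 genes in crypt and 10 in villus at day 8 and for 9 and 7 at day 91, which was 2.25%, 2.03%, 2.85% and 2.71% of all genes in the same order. Between 5 and 8 P450 genes had 3 counts or fewer in every library of both groups, so no change could be seen for them at this depth.

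At 60 ppm 11 genes were lower and 0 higher in crypt at day 8 (1.07% of all genes lower and 0.384% higher, 1.45% in either direction) and 5 lower and 0 higher at day 91 (2.09% and 7.94%, 10% in either direction). In villus 11 were lower and 1 higher at day 8 (4.11% and 2.51%, 6.62% in either direction), and 12 lower and 2 higher at day 91 (3.85% and 11.6%, 15.5% in either direction). The 11 of crypt at day 8 became 7, 5, 7, 6 and 7 without mouse 46, 49, 447, 448 and 449, and the 14 of villus at day 91 became 9, 9 and 8 without mouse 5, 402 and 404. Mouse 447 had a low summed P450 CPM in both compartments at 60 ppm. The sum was 300.2 in crypt against 992 to 1557 in the other 4 mice, and 832 in villus against 2081 to 3411. Its enterocyte markers were 7435 CPM in crypt against 17838 to 34227 CPM. In villus they lay within the range of the others, at 46025 CPM against 40268.5 to 71473 CPM. Its Paneth markers in villus were 8403 CPM against 186 to 2803 CPM. No P450 gene was called in crypt at 0.1 to 20 ppm by edgeR, with 10, 13, 14 and 16 genes under an unadjusted p of 0.05 at day 8 and 7, 5, 7 and 9 at day 91; with DESeq2 the calls were 0, 0, 0 and 3 in the earlier set and 0, 0, 0 and 1 in the later, and with the default form of the quasi-likelihood fit 0, 0, 0 and 2 and then 0 at each dose. Of all genes, 0, 0, 0 and 0.137% were called at day 8 and 0, 0, 0 and 0.242% at day 91. In villus at day 8, 0 were called at 0.1 and 5 ppm (10 and 14 under an unadjusted p of 0.05; DESeq2 called 0 and 1), 1 at 1.4 ppm and 2 at 20 ppm, all lower, with 0, 0.347%, 0.921% and 1.49% of all genes called at 0.1, 5, 1.4 and 20 ppm. In villus at day 91, 0 were called at 0.1 and 1.4 ppm (16 and 4 under an unadjusted p of 0.05; DESeq2 called 0 and 0), 3 were lower and 4 higher at 5 ppm and 4 lower and 3 higher at 20 ppm, where 0.337%, 0.258%, 12.5% and 15.8% of all genes were called, with 2.71% lower and 9.82% higher at 5 ppm and 3.46% and 12.4% at 20 ppm. With DESeq2's size factors the counts at 5 and 20 ppm were 4 lower and 4 higher, and 7 lower and 3 higher. Over all sets the calls at 0.1 to 20 ppm numbered 17, and 9, 11 and 11 without mouse 3, 5 and 6, untreated mice of day 91, where the last 2 totals include genes not called with all mice. At 5, 20 and 60 ppm in villus at day 91 the median of all genes was itself 0.58, 0.45 and 0.32 above the shallow untreated group on the log2 scale.

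**Figure D1:**
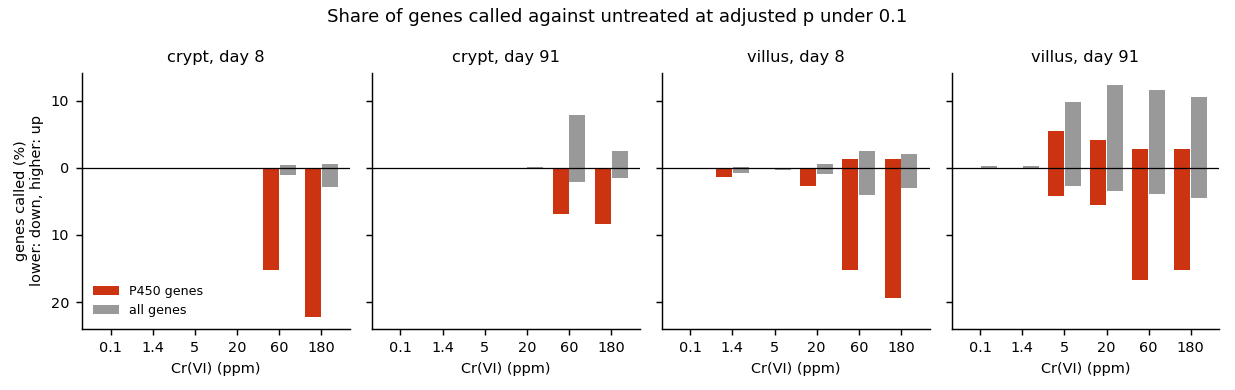
Share of the 72 P450 genes (red) and of all 18998 genes (grey) called against the untreated group at adjusted p under 0.1, in percent, by dose in ppm, with genes called lower drawn below the line and genes called higher above it. At 180 ppm the P450 share below the line stood for 16, 6, 14 and 11 genes in crypt day 8, crypt day 91, villus day 8 and villus day 91.

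A linear trend over the 7 ordered doses used all libraries of a compartment and day at once. It called 24 P450 genes lower and 1 higher in crypt at day 8 (5.78% and 3.81% of all genes), 13 and 4 at day 91 (4.72% and 11.1%), 24 and 3 in villus at day 8 (10.1% and 6.34%), and 21 and 12 at day 91 (7.87% and 24.8%). Most of these 12 were rare: among the 39 P450 genes with a mean of at least 1 CPM 17 were lower and 3 higher in villus at day 91 (10.3% and 27.3% of all genes at that level), and with a mean count of at least 10 required 16 and 2. Over these 4 trends and the 4 contrasts at 180 ppm, 52 of the 72 genes were called at least 1 time and 20 never, against 46.9% of all 18998 genes called at least 1 time.

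The untreated day 8 libraries of mice 48 and 49 bore on these counts as follows. Without them (the villus library of mouse 48 and the crypt library of mouse 49), 5 genes instead of 11 were lower in crypt at 60 ppm and 13 instead of 16 at 180 ppm, and the crypt trend called 22 lower and 2 higher. The villus counts at day 8 were 11 lower and 1 higher at 60 ppm, 15 and 1 at 180 ppm, and 25 and 4 by trend. The shares of all genes without these libraries are not given here. The counts of day 91 at 60 and 180 ppm were the same with and without them, as were the calls at 180 ppm of the 8 genes given by library below.

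The genes called lower recurred across sets. At 180 ppm Cyp2b10, Cyp3a13, Cyp3a25 and Cyp4v3 were lower in all 4 sets of compartment and day, Cyp2d22, Cyp3a11 and Cyp4f14 in 3, Cyp2c55, Cyp2c66, Cyp2c68, Cyp4f15 and Cyp4f16 in 2, and 12 further genes in 1. Of all 18998 genes 0.711%, 0.5%, 1.16% and 5.17% were lower in 4, 3, 2 and 1 sets. Within a day, crypt and villus came from the same mice, so these sets are not independent.

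By family, 3 of 6 CYP3 genes were lower at 180 ppm in crypt and villus at day 8 and in villus at day 91, and 2 in crypt at day 91. Of the 35 CYP2 genes 6, 2, 6 and 4 were lower in crypt day 8, crypt day 91, villus day 8 and villus day 91, and of the 14 CYP4 genes 6, 2, 3 and 3. Of the 14 genes of other families 0, 0, 2 and 1 were lower, and of the 3 CYP1 genes 1, 0, 0 and 0, where 2.81%, 1.57%, 3.02% and 4.44% of all genes were lower in the same order. The 3 higher calls were 1 CYP4 gene, Cyp4f40, in villus at day 8 and 2 genes of other families, Cyp20a1 and Cyp11b2, in villus at day 91.

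The promoters of 5 of the 7 genes that were lower in 3 or 4 of the sets are printed here, the 5 with the smallest adjusted p over the 8 tests, since nuclear receptors that bind AGGTCA-type half-sites are known to regulate several of them. The sequences are from RefSeq on GRCm38.p6 (55 of the 72 genes matched), 5′ to 3′ on the gene's strand, taken from the 250 bases before the RefSeq transcript start. Bases that lie inside the gene as GENCODE M21 annotates it were left out at the 3′ end, so the printed sequences of Cyp3a11, Cyp4v3 and Cyp2b10 stop 110, 53 and 38 bases short of that start, while those of Cyp3a25 and Cyp3a13 reach it. Capitals mark AGGTCA or AGTTCA on either strand.
Cyp2b10, chr7:25897408-25897619, plus strand: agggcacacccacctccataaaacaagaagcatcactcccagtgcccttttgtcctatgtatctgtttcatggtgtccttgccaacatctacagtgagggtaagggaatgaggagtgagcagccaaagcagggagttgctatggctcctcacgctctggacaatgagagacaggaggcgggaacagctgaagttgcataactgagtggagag
Cyp3a13, chr5:137921620-137921869, minus strand: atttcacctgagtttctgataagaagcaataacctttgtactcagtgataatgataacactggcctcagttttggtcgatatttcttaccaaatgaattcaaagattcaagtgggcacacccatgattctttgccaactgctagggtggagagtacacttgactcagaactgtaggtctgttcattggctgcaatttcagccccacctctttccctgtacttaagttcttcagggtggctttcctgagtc
Cyp3a25, chr5:146009619-146009868, minus strand: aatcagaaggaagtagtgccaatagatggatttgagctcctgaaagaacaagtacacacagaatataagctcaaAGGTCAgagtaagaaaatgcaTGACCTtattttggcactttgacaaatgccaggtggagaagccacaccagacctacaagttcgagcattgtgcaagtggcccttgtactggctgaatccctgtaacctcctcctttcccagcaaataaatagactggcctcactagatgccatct
Cyp3a11, chr5:145879965-145880104, minus strand: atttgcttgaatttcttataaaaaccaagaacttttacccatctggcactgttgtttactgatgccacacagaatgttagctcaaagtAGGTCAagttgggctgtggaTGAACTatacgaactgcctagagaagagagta
Cyp4v3, chr8:45333217-45333413, minus strand: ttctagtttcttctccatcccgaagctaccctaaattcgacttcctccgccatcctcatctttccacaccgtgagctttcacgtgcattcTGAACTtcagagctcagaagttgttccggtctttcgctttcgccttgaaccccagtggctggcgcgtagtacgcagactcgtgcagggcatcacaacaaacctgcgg
Counted to the RefSeq start and not to the end of the printed letters, Cyp3a25 held AGGTCA starting 176 bases before the start and, on the opposite strand, 155 bases before it, Cyp3a11 held AGGTCA at 162 and the opposite-strand AGTTCA at 142, and Cyp4v3 the opposite-strand AGTTCA at 160 bases. Neither motif was in the 250 bases of Cyp2b10 and Cyp3a13, which says only that these letters are not in this window. Searched on both strands of the 250 bases before the start, AGGTCA was in 21.8% of the 55 P450 promoters and 13.8% of all 27025, AGTTCA in 12.7% and 11.9%, GCGTG, the core of the AhR element, in 21.8% and 28.2%, TATAAA in 40% and 13%, and CAAAG in 80% and 48.8%. A match is a description of the letters and not a bound site.

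Cyp2b10, an enzyme known as a target of CAR, lies on chromosome 7 (25897620-25926624, plus strand, gene coordinates throughout from the GENCODE annotation of GRCm38) and had the smallest adjusted p of all P450 genes. In crypt at day 8 it measured 186, 203, 213, 305 and 571 CPM untreated and 0, 0, 0.246, 3.44 and 5.83 CPM at 180 ppm (log2 fold change -7.15 ± 0.85 SE, adjusted p = 1.65e-10). Crypt at day 91 gave 217, 247, 379.7, 400.4 and 437 CPM untreated and 2.16, 5.73, 17.1, 38.3 and 70.9 CPM at 180 ppm (log2 fold change -3.65 ± 0.69 SE, adjusted p = 1.53e-04). All exposed crypts lay below all untreated ones, with 2 exposed libraries at 0 at day 8. The villus values at day 8 were 321, 632, 656, 728 and 757 CPM untreated and 0, 1.94, 7.54 and 70.7 CPM at 180 ppm (log2 fold change -4.97 ± 0.81 SE, adjusted p = 9.13e-06). Villus at day 91 held 486, 572, 780.3 and 959 CPM untreated and 3.46, 4.89, 81.7, 138 and 216 CPM at 180 ppm (log2 fold change -2.98 ± 0.68 SE, adjusted p = 9.35e-04). The untreated villus of mouse 48 was the low one at 321 CPM, and the groups did not overlap. Means over dose were at or above the untreated level up to 1.4 ppm and lower above it, in crypt at day 8 from 335 CPM at 1.4 ppm through 169, 72.5 and 13.5 to 1.90 CPM at 180 ppm, and in villus at day 91 from 867 CPM through 646, 403 and 151 to 88.9 CPM. Calls against the untreated group began at 60 ppm in each set.

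Cyp4v3, a fatty acid hydroxylase whose human counterpart is mutated in a retinal dystrophy, lies on chromosome 8 (45304944-45333216, minus strand). Crypts at day 8 measured 73.6, 85.8, 107, 195 and 316 CPM untreated and 8.84, 9.88, 17.0, 21.2 and 39.8 CPM at 180 ppm (log2 fold change -3.01 ± 0.40 SE, adjusted p = 1.31e-08). Those of day 91 measured 119, 156, 213, 239.9 and 329.9 CPM untreated and 25.9, 26.6, 51.4, 61.8 and 82.3 CPM at 180 ppm (log2 fold change -2.09 ± 0.38 SE, adjusted p = 1.01e-04). No exposed crypt reached an untreated one. For villus at day 8 the values were 176, 266, 372, 384 and 513 CPM untreated and 26.0, 36.4, 46.3 and 86.7 CPM at 180 ppm (log2 fold change -2.81 ± 0.43 SE, adjusted p = 2.42e-06). At day 91 villus gave 306, 319, 467 and 598 CPM untreated and 23.5, 34.9, 100.4, 167 and 209.7 CPM at 180 ppm (log2 fold change -1.98 ± 0.40 SE, adjusted p = 1.11e-04). Both villus comparisons were also free of overlap, and calls began at 60 ppm in all 4 sets.

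Among the CYP3A genes, Cyp3a13 (chromosome 5, 137892932-137921619, minus strand) is the CYP3A member known chiefly from intestine. Its crypt values at day 8 were 147, 155, 208, 217 and 494 CPM untreated and 26.2, 27.1, 33.5, 41.7 and 61.3 CPM at 180 ppm (log2 fold change -2.68 ± 0.34 SE, adjusted p = 1.55e-09). At day 91 they were 149, 172, 189, 200.3 and 243 CPM untreated and 26.6, 56.6, 111, 117 and 125 CPM at 180 ppm (log2 fold change -1.13 ± 0.32 SE, adjusted p = 0.0258). In crypt the groups did not overlap. Villus values of Cyp3a13 at day 8 were 191, 544, 627, 838 and 914 CPM untreated and 151, 178, 194 and 229 CPM at 180 ppm (log2 fold change -1.73 ± 0.35 SE, adjusted p = 4.07e-04). Those at day 91 were 592, 927, 1243 and 1433 CPM untreated and 136.9, 154, 369, 383 and 431 CPM at 180 ppm (log2 fold change -1.83 ± 0.33 SE, adjusted p = 1.96e-05). The day 8 villus groups overlapped only through the untreated villus of mouse 48 at 191 CPM. In villus at day 91 Cyp3a13 was called lower at every dose from 5 ppm, where it averaged 431 CPM against 1049 CPM untreated (log2 fold change -1.28 ± 0.33 SE, adjusted p = 0.00774), with 360, 275 and 295 CPM at 20, 60 and 180 ppm. The call in crypt at day 91 was lost without mouse 484 (log2 fold change -0.90, adjusted p = 0.186).

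Cyp3a25 (chromosome 5, 145977194-146009618, minus strand), a steroid and drug oxidase, measured 138, 147, 211, 354 and 599.7 CPM untreated and 12.6, 18, 26.1, 28.9 and 40.5 CPM at 180 ppm (log2 fold change -3.52 ± 0.53 SE, adjusted p = 4.36e-07) in crypt at day 8. In crypt at day 91 it gave 191, 192, 213, 242 and 474 CPM untreated and 1.26, 3.44, 32.8, 62.4 and 85.0 CPM at 180 ppm (log2 fold change -2.82 ± 0.51 SE, adjusted p = 8.26e-05). Mouse 8 was high among the untreated crypts of day 91, and no exposed crypt reached any untreated one. Its day 8 villi held 307, 377, 392, 512 and 729.6 CPM untreated and 34.1, 52.7, 79.6 and 126 CPM at 180 ppm (log2 fold change -2.67 ± 0.56 SE, adjusted p = 7.15e-04). Its day 91 villi held 282, 376, 381 and 624 CPM untreated and 10, 19.0, 109, 191 and 245 CPM at 180 ppm (log2 fold change -1.86 ± 0.51 SE, adjusted p = 0.00877). Again the groups were apart, with the 2 lowest exposed libraries of day 91 far under the other 3.

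Cyp3a11 (chromosome 5, 145854426-145879964, minus strand), the most abundant CYP3A of mouse liver and a PXR target, was called at day 8 in both compartments and at day 91 in villus, while the call in crypt at day 91 depended on the probe and the fit. Day 8 crypts had 63.7, 68.5, 80.7, 149 and 162 CPM untreated and 0, 0.738, 2.73, 3.90 and 6.08 CPM at 180 ppm (log2 fold change -5.23 ± 0.76 SE, adjusted p = 1.17e-07). Day 91 crypts had 87.4, 95.1, 119.5, 174 and 226 CPM untreated and 0.917, 9.88, 33.7, 81.1 and 165 CPM at 180 ppm (log2 fold change -1.27 ± 0.61 SE, adjusted p = 0.305). The day 8 groups were apart and the day 91 groups overlapped. In crypt at day 91 the second Cyp3a11 probe was called lower (-2.62, adjusted p = 0.00252), as were both probes summed (-1.72, adjusted p = 0.0845) and the main probe in a fit of that compartment and day alone (-1.28, adjusted p = 0.0777). Day 8 villi had 124, 365, 403, 520.3 and 714 CPM untreated and 9.97, 11.1, 21.8 and 75.9 CPM at 180 ppm (log2 fold change -3.85 ± 0.74 SE, adjusted p = 1.73e-04). Day 91 villi had 357, 823, 831 and 966 CPM untreated and 5.35, 23.2, 119, 506 and 546 CPM at 180 ppm (log2 fold change -1.63 ± 0.63 SE, adjusted p = 0.0873). At day 91 the exposed villi overlapped the untreated ones, 2 of them lying above the lowest untreated one, that of mouse 7. The 180 ppm effect in crypt differed between the days by 3.96 ± 0.93 (SE, log2, day 91 minus day 8; adjusted p = 0.0673), the only P450 gene called there by its main probe, against 0.0842% of all genes. The second probe gave 1.69 ± 0.83 for the same difference and was not called (adjusted p = 0.501). The call of the main probe was lost in 12 of 20 leave-outs of 1 mouse (mice 3, 5, 6, 7, 46, 49, 488, 490, 527, 528, 529 and 530, with adjusted p up to 0.276) and without the libraries of mice 48 and 49 (adjusted p = 0.221). The villus call at day 91 was lost without mouse 3, 5, 6, 483, 484 or 485 (log2 fold change -1.32 to -1.58, adjusted p = 0.139 to 0.196). In crypt at day 91 Cyp3a11 was called lower without mouse 488 (-2.16, adjusted p = 0.0514).

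**Figure D2:**
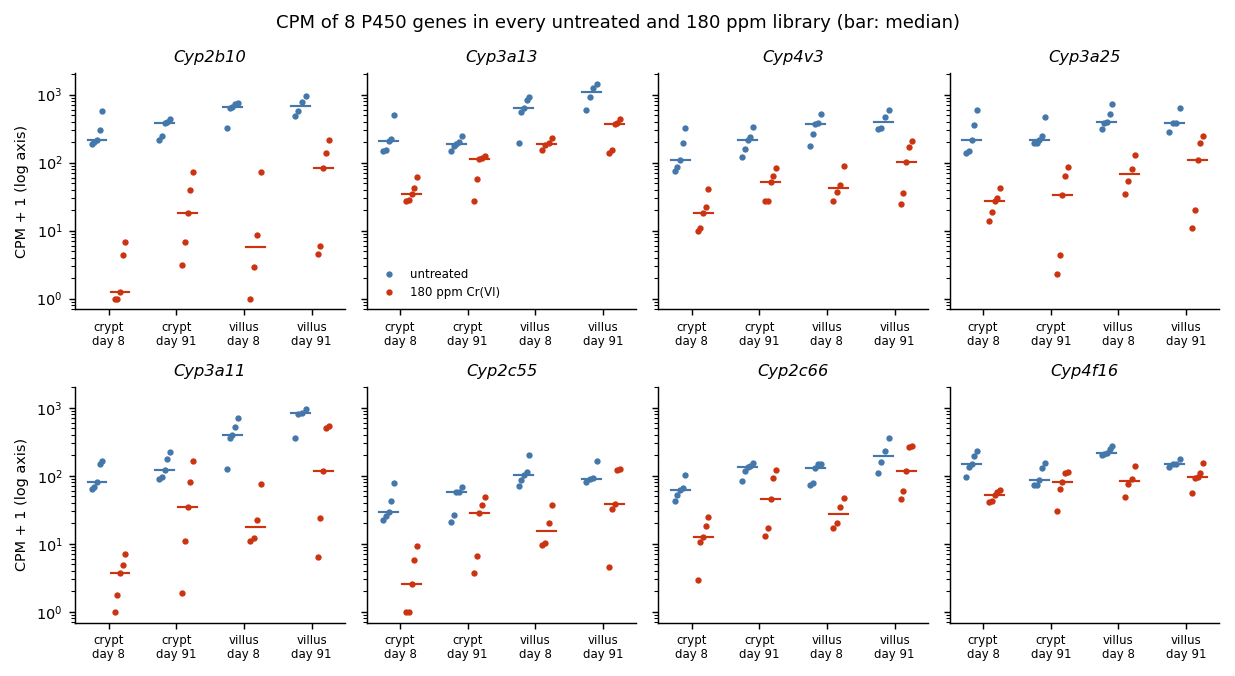
CPM plus 1 on a log axis for the 8 P450 genes with the smallest adjusted p, 1 point per library, untreated (blue) and 180 ppm (red), by compartment and day; bars are medians. Red points lie below all blue points in both day 8 sets for Cyp2b10, Cyp4v3, Cyp3a25, Cyp3a11, Cyp2c55, Cyp2c66 and Cyp4f16, while at day 91 the groups of Cyp3a11, Cyp2c55, Cyp2c66 and Cyp4f16 overlap.

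Cyp2c55, a CYP2C enzyme that makes hydroxy fatty acids from arachidonic acid (chromosome 19, 39007019-39042693, plus strand), fell at day 8. Its crypts measured 21.2, 24.5, 28.5, 41.3 and 78.5 CPM untreated and 0, 0, 1.61, 4.74 and 8.19 CPM at 180 ppm (log2 fold change -3.85 ± 0.64 SE, adjusted p = 5.83e-06). At day 91 its crypts measured 19.6, 25.4, 56.0, 57.3 and 67.5 CPM untreated and 2.75, 5.57, 27.5, 36.0 and 47.6 CPM at 180 ppm (log2 fold change -0.92 ± 0.54 SE, adjusted p = 0.423). Only the day 8 groups were apart. Villi of day 8 gave 70.7, 86.6, 103, 112 and 202 CPM untreated and 8.52, 9.42, 19.3 and 35.7 CPM at 180 ppm (log2 fold change -2.66 ± 0.62 SE, adjusted p = 0.00317). Villi of day 91 gave 80.7, 88.2, 90.7 and 164 CPM untreated and 3.49, 31.1, 37.9, 121 and 124 CPM at 180 ppm (log2 fold change -0.74 ± 0.56 SE, adjusted p = 0.408). In villus too, the day 91 groups overlapped, and mouse 6 was the high untreated library at 164 CPM. At day 91 its middle doses averaged above the untreated group (93.3, 118 and 85.5 CPM at 0.1, 1.4 and 5 ppm against 45.2 CPM in crypt), with none of them called.

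Cyp2c66, its neighbour on chromosome 19 (39113898-39187072, plus strand), was called in the same sets at 180 ppm; at 60 ppm in villus at day 8 Cyp2c55 was called (adjusted p = 0.0326) and Cyp2c66 was not. Crypt at day 8 showed 42.2, 51.2, 61.7, 66.2 and 103 CPM untreated and 1.89, 9.6, 11.5, 17.2 and 23.8 CPM at 180 ppm (log2 fold change -2.35 ± 0.48 SE, adjusted p = 4.48e-04). For crypt at day 91 the values were 83.7, 117, 133, 141 and 156 CPM untreated and 12.1, 16.2, 44.4, 92.1 and 119.5 CPM at 180 ppm (log2 fold change -1.15 ± 0.45 SE, adjusted p = 0.21). Overlap was again confined to day 91 in crypt. Villus at day 8 showed 71.2, 77.0, 130.4, 149.8 and 151 CPM untreated and 16.2, 19.0, 34.3 and 46.1 CPM at 180 ppm (log2 fold change -2.0 ± 0.51 SE, adjusted p = 0.00871). For villus at day 91 they were 110.2, 158, 234 and 364 CPM untreated and 45.4, 58.4, 118, 261 and 273 CPM at 180 ppm (log2 fold change -0.52 ± 0.47 SE, adjusted p = 0.522). Exposed and untreated villi were apart at day 8 and overlapped at day 91. The trend over dose was called lower in all 4 sets for Cyp2c66 and Cyp2c55, but in villus at day 91 the calls lay near the threshold (adjusted p = 0.0998 and 0.0727) and were lost in 19 and 6 of 29 leave-outs of 1 mouse (highest adjusted p = 0.322 and 0.188). The trend of Cyp2c55 in crypt at day 91 (adjusted p = 0.0504) was lost in 3 of 30. In crypt at day 91 Cyp2c66 was called at 180 ppm without mouse 488 (adjusted p = 0.0477), by DESeq2 (adjusted p = 0.0408), by the default form of the quasi-likelihood fit (adjusted p = 0.0836) and in a fit of that compartment and day alone (adjusted p = 0.015).

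Cyp4f16, a CYP4F fatty acid hydroxylase on chromosome 17 (32536558-32551798, plus strand), was the last of the 8. Its levels in crypt at day 8 were 96.0, 134, 148, 193 and 232 CPM untreated and 40.9, 41.7, 50.7, 57.8 and 61.3 CPM at 180 ppm (log2 fold change -1.67 ± 0.33 SE, adjusted p = 1.97e-04). Its levels in crypt at day 91 were 72.6, 73.0, 86.4, 129.8 and 153 CPM untreated and 29.6, 63.5, 80.8, 109 and 114 CPM at 180 ppm (log2 fold change -0.38 ± 0.32 SE, adjusted p = 0.707). The first pair of groups was apart and the second overlapped. Its levels in villus at day 8 were 204, 207, 217, 249.5 and 273 CPM untreated and 48.5, 76.2, 89.2 and 136.9 CPM at 180 ppm (log2 fold change -1.39 ± 0.35 SE, adjusted p = 0.00771). Its levels in villus at day 91 were 133, 149.8, 149.9 and 174 CPM untreated and 54.9, 92.3, 93.9, 108 and 156 CPM at 180 ppm (log2 fold change -0.59 ± 0.34 SE, adjusted p = 0.251). At day 91 in villus it was called higher at 5 ppm (283 against 152 CPM, log2 fold change 0.90 ± 0.34 SE, adjusted p = 0.093), a call lost in 7 of 9 leave-outs of 1 mouse and under DESeq2's size factors (adjusted p up to 0.184). The trend over all doses there was lower (-0.10 per dose step, adjusted p = 0.0704), and at 180 ppm it was called lower by DESeq2 (adjusted p = 0.0434).

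At 180 ppm and day 91, mice 484 and 485 stood apart from the other 3. Their summed P450 CPM was 829 and 891 in crypt against 1410 to 1834 in the other 3 mice, and 1618 and 1757 in villus against 3069 to 4287. Their enterocyte marker sums were also low, 16752 and 13556 CPM in crypt against 32537 to 37351, and 30542 and 46312 CPM in villus against 74890 to 95467. Pancreatic acinar markers (Cpa1 the most abundant of 14) were high in both villi, at 40447 and 73842 CPM against 89.3 to 1447 CPM. In crypt they were not, at 4500 and 15726 CPM against 57.8 to 22270 CPM in the other 3. The part of these marker differences in the P450 values was not tested.

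Other CYP2 genes that fell included members of the 2C and 2D clusters. Cyp2c68 was lower in crypt at day 8 (30.2 to 7.96 CPM at 180 ppm, log2 fold change -1.92 ± 0.52 SE, adjusted p = 0.0176) and in villus at day 8 (57.6 to 9.94 CPM, -2.55 ± 0.57 SE, adjusted p = 0.00202). Cyp2d22 fell in villus from 24.6 to 2.47 CPM at day 8 and from 28.3 to 6.10 CPM at day 91, and in crypt from 17.2 to 3.72 CPM at day 91. Cyp2d26, the most abundant Cyp2d probe, fell in crypt at day 8 from 128 to 43.2 CPM (adjusted p = 0.00782, and 0.117 without mouse 49). In villus at day 8 it measured 226 and 110 CPM (adjusted p = 0.159). By trend it was lower in crypt and villus at day 8 (adjusted p = 3.25e-05 and 0.00679, lost in 0 of 31 and 0 of 28 leave-outs). Cyp2r1, a vitamin D 25-hydroxylase, was read at a mean of 4.24 CPM in untreated day 8 villi and at 0 counts in every villus of that day at 60 and 180 ppm (adjusted p = 0.0599 at 180 ppm, a call lost in 5 of 9 leave-outs of 1 mouse). A rarer Cyp2r1 probe gave a log2 fold change of 0.71 there at 180 ppm and was not called (adjusted p = 0.98). By their main probes Cyp2d10, Cyp2c29 and Cyp2j6, an epoxygenase, were called lower only by trend or at 60 ppm. Cyp2c29, for example, fell in villus at day 91 from 31.5 to 3.46 CPM at 60 ppm (adjusted p = 0.0471, lost without mouse 3, 402 or 404). Another Cyp2c29 probe, given below, was called lower at 180 ppm at day 8.

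Among CYP4 genes Cyp4f14, known for oxidizing leukotriene B4, fell in crypt at day 8 (66.2 to 28.1 CPM, log2 fold change -1.23 ± 0.31 SE, adjusted p = 0.00922) and day 91 (61.2 to 32.4 CPM, adjusted p = 0.098, lost in 7 of 10 leave-outs of 1 mouse) and in villus at day 91 (126 to 54.5 CPM, adjusted p = 0.00697), where it was already called at 5 ppm (64.0 CPM, adjusted p = 0.054, lost without mouse 5, 6, 245 or 246). Cyp4a10, a fatty acid omega-hydroxylase and PPAR-alpha target, fell in crypt at day 8 from 8.47 to 0.413 CPM (adjusted p = 0.00453) but measured 8.2 and 8.1 CPM in villus at day 8. Cyp4b1 fell in the same crypts from 9.85 to 1.5 CPM (adjusted p = 0.0299, a call lost without mouse 46, 49, 526 or 528). Cyp4f15 was at 0 counts in every crypt and every villus at 180 ppm at day 8, against untreated means of 4.14 and 2.62 CPM (adjusted p = 0.0184 and 0.0803, the second lost in 6 of 9 leave-outs). Cyp4f13 was called lower in villus at day 8 at 60 ppm (adjusted p = 0.02025) and by trend. The call at 60 ppm was lost without mouse 48 (adjusted p = 0.104).

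Cyp1a1, the AhR-induced member, fell in crypt at day 8 from 19.8 to 1.55 CPM at 180 ppm (log2 fold change -3.56 ± 0.76 SE, adjusted p = 8.28e-04). It was not called in the other sets, with 36.8 and 13.4 CPM in villus at day 8, 9.34 and 6.55 CPM in crypt at day 91 and 26.3 and 21.8 CPM in villus at day 91. The other 5 genes known as AhR targets that were tested gave 0 calls at 180 ppm in any set by edgeR, Nqo1 for example measuring 45.0 and 66.6 CPM in villus at day 8; 1 had an unadjusted p under 0.05, in villus at day 91, and DESeq2 called 1 there and 0 in the other sets.

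Of P450s that act on sterols, Cyp27a1 was called in crypt and villus and Cyp39a1 in villus, while Cyp7b1, an oxysterol 7-alpha-hydroxylase, was called in none of the 8 tests. Cyp8b1, the sterol 12-alpha-hydroxylase of bile acid synthesis, was called in 1 of them, the trend of villus at day 8 (adjusted p = 0.0408). That call was lost without mouse 48, 90 or 210, and without the libraries of mice 48 and 49 described above. These 4 genes were grouped, and Cyp7b1 and Cyp8b1 singled out, after their values were seen. Cyp27a1, the mitochondrial sterol 27-hydroxylase, fell in villus at day 8 from 25.6 to 2.70 CPM at 20 ppm (adjusted p = 0.0282) and to 5.07 CPM at 180 ppm (adjusted p = 0.0773), and at day 91 from 23.3 to 5.12 CPM at 20 ppm (adjusted p = 0.0394). By trend it was lower in all 4 sets, in crypt at days 8 and 91 with adjusted p = 0.0086 and 0.0581 (lost in 0 of 31 and 2 of 30 leave-outs of 1 mouse) and in villus with adjusted p = 9.90e-04 and 0.0229. Cyp27a1 was also called lower in villus at 60 ppm of day 91 (log2 fold change -1.99, adjusted p = 0.0619). Leaving out 1 mouse lost its villus calls at 20 and 180 ppm of day 8 in 1 and 4 of 9 cases. Mouse 368 was the 1 at 20 ppm (adjusted p = 0.155). Those at 20 and 60 ppm of day 91 were lost in 3 and 4 of 9. Cyp39a1, an oxysterol 7-alpha-hydroxylase, averaged 4.43 CPM in untreated day 8 villi and was at 0 counts in every villus of that day at 5, 20 and 180 ppm, with calls at 20 and 180 ppm (adjusted p = 0.0748 and 0.0289, the first lost in 5 of 9 leave-outs). Low counts limit this: 43 counts was its highest untreated library.

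**Figure D3:**
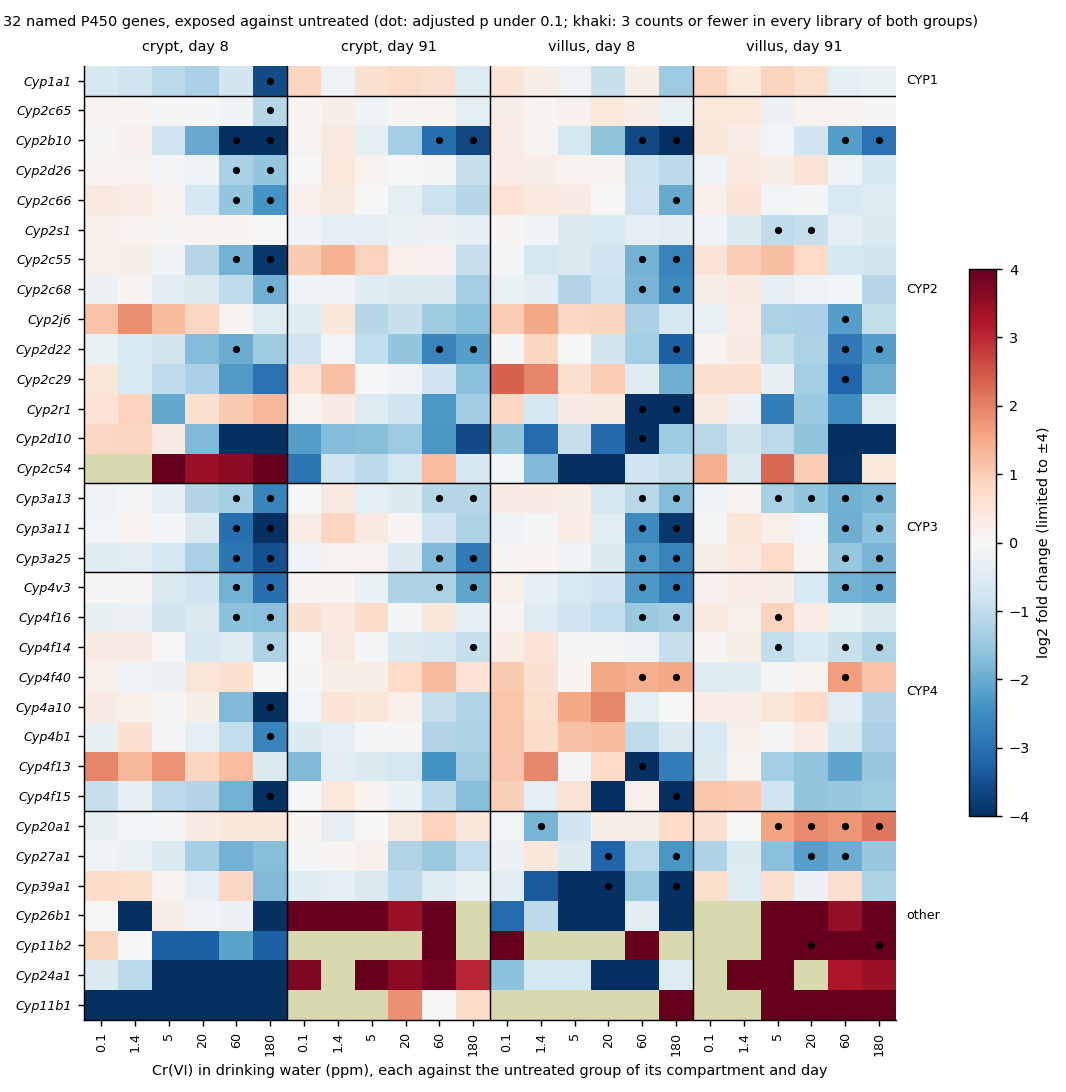
Log2 fold change against the untreated group of the same compartment and day for the 32 named P450 genes (rows, by family and then by mean CPM) at 6 doses in 4 sets (columns); colour is limited to 4 in either direction, dots mark adjusted p under 0.1, and khaki cells have 3 counts or fewer in every library of both groups. Cyp2b10, Cyp3a13, Cyp3a25 and Cyp4v3 carry dots at 60 and 180 ppm in all 4 sets and Cyp3a11 in 3 of them, Cyp2d22 carries dots in all 4 sets and Cyp2c54 none, and dots run from 5 to 180 ppm for Cyp3a13 (blue, lower) and Cyp20a1 (red, higher) in villus at day 91.

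A few P450 genes rose in some sets. Cyp20a1, a P450 without a settled substrate, rose in villus at day 91 from 8.04 CPM to 24.3, 30.5, 27.8 and 35.2 CPM at 5, 20, 60 and 180 ppm (at 180 ppm log2 fold change 2.11 ± 0.51 SE, adjusted p = 0.00213), whereas untreated crypts of that day already held 24.5 CPM. Its call at 5 ppm was lost without mouse 3, 6 or 246, and those at 20, 60 and 180 ppm held whichever mouse was left out. In villus at day 8 it was lower at 1.4 ppm (4.43 against 16.3 CPM, adjusted p = 0.0545, lost without mouse 46, 47, 48 or 209) and higher by trend. Cyp4f40 rose in villus at day 8 from 14.5 to 39.4 CPM at 60 ppm and 42.0 CPM at 180 ppm (adjusted p = 0.0905 and 0.0942) and at day 91 from 20.0 to 63.5 CPM at 60 ppm (adjusted p = 0.0317). The day 8 calls were lost in 8 of 10 and 7 of 9 leave-outs of 1 mouse, and the day 91 call without mouse 5 or 6 and under DESeq2's size factors (adjusted p = 0.11). Cyp11b2, the aldosterone synthase of the adrenal, was at 0 counts in all 4 untreated day 91 villi and averaged 8.65 and 3.02 CPM at 20 and 180 ppm, both called, in calls lost in 4 and 8 of 9 leave-outs; those untreated libraries were also the shallow ones. By trend it was called lower in crypt at day 8 (adjusted p = 0.0479) and higher in crypt and villus at day 91 (adjusted p = 0.0289 and 9.16e-04). The crypt trends were lost without mouse 47 or 209 at day 8 and without mouse 490 at day 91. Cyp11b1, Cyp26b1, which degrades retinoic acid, Cyp2c54 and Cyp24a1, which inactivates vitamin D, averaged about 1 CPM or less and were called only by a trend. Cyp2c54 was higher and Cyp24a1 lower in crypt at day 8 (adjusted p = 0.0261 and 0.027). Each of these calls was lost in 2 of 31 leave-outs of 1 mouse, and DESeq2 gave neither an adjusted p. Cyp11b1 was higher in villus at day 91 (adjusted p = 0.013), and Cyp26b1 lower in villus at day 8 and higher at day 91 (adjusted p = 0.0705 and 0.0148). The 2 Cyp26b1 trends were lost in 7 of 28 and 1 of 29 leave-outs of 1 mouse, and DESeq2 called neither (adjusted p = 0.263 and 0.191). Cyp26b1 was also the only P450 gene whose villus effect at 180 ppm was called as differing between days (fitted log2 difference 11.5 ± 3.57 SE, adjusted p = 0.0852), where 3.41% of all genes were called. It averaged 4.04 CPM untreated and 0 at 180 ppm at day 8, and 0 and 0.791 CPM at day 91, so the fitted size depends on the prior count, and the call was lost in 11 of 18 leave-outs of 1 mouse.

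Further calls at 5 or 20 ppm in villus at day 91 included 3 genes. At 5 ppm Cyp2c50 and Cyp2c70 averaged 8.47 and 4.79 CPM against 0 counts in all untreated villi and were called higher, Cyp2c70 was also called higher at 20 ppm (adjusted p = 0.0863, lost in 5 of 9 leave-outs), and Cyp2s1 was lower at 5 and 20 ppm (52.7 and 55.9 against 106 CPM, adjusted p = 0.0124 and 0.015) with 82.2 and 73.2 CPM at 60 and 180 ppm, neither called. These singled-out genes other than Cyp2s1 were chosen after their values were seen. The calls of Cyp2c50 and Cyp2c70 at 5 ppm were lost in 6 and 7 of 9 leave-outs of 1 mouse, and those of Cyp2s1 in 0.

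Cyp2c65, the most abundant P450 probe, was called in a single dose contrast. It fell in crypt at day 8 at 180 ppm (408 to 186 CPM, log2 fold change -1.13 ± 0.35 SE, adjusted p = 0.0608), a call lost without any 1 of 5 mice (49, 527, 528, 529 and 530, with adjusted p up to 0.279). By trend over dose it was also lower in crypt at day 8 (-0.144 per dose step, adjusted p = 0.0397). Of 31 leave-outs of 1 mouse, that trend was lost in 1, without mouse 49 (adjusted p = 0.138). In the other sets it was not called at any dose, and its log2 fold change at 180 ppm was -0.35 ± 0.34 (SE) in crypt at day 91, -0.25 ± 0.37 in villus at day 8 and -0.06 ± 0.36 in villus at day 91. Cyp2s1, which oxidizes retinoic acid, measured 73.4 and 72.1 CPM in crypt at day 8 untreated and at 180 ppm. Its log2 fold change there was -0.02 ± 0.26 (SE).

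**Figure D4:**
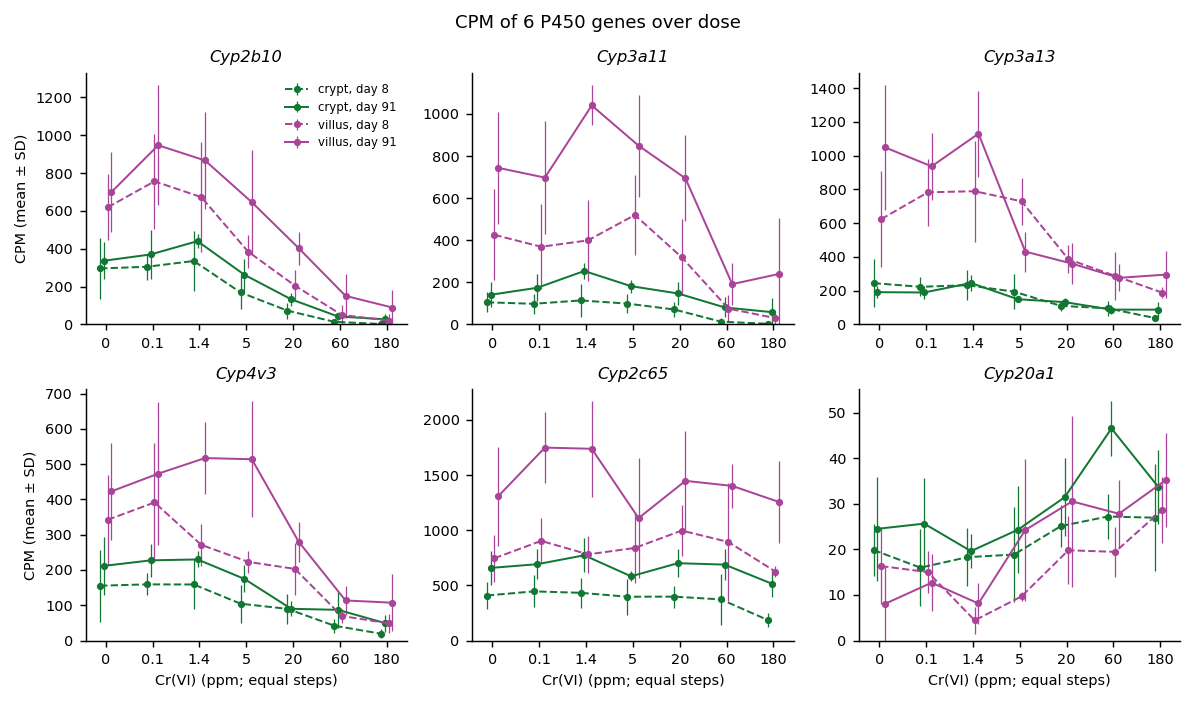
Mean CPM ± SD (4 to 6 mice) of 6 P450 genes over the 7 doses of Cr(VI), drawn at equal steps, in crypt (green) and villus (purple) at day 8 (dashed) and day 91 (solid). Cyp2b10, Cyp3a11, Cyp3a13 and Cyp4v3 decline toward 180 ppm, Cyp2c65 in villus at day 91 stays between 1109.7 and 1749 CPM with no dose called, and Cyp20a1 in villus at day 91 climbs from 8.04 to 35.2 CPM.

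The 20 genes called in none of the 8 tests were Cyp1b1, Cyp2c23, Cyp2c38, Cyp2c67, Cyp2c70, Cyp2d12, Cyp2e1, Cyp2g1, Cyp2j5, Cyp2j9, Cyp2w1, Cyp3a44, Cyp3a59, Cyp4a31, Cyp4f17, Cyp4f18, Cyp4f39, Cyp7b1, Cyp17a1 and Cyp27b1. Cyp1b1, an extrahepatic CYP1, averaged 5.19 CPM in untreated day 8 villi and 1.74 CPM at 180 ppm. Called in at least 1 of the 8 tests and not described above were Cyp1a2, Cyp2a5, Cyp2b9, Cyp2b23, Cyp2c37, Cyp2c40, Cyp2d9, Cyp2d11, Cyp2d34, Cyp2j13, Cyp2t4, Cyp2u1, Cyp3a16, Cyp4a29, Cyp4a32, Cyp11a1, Cyp19a1 and Cyp21a1.

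Summed over the 72 genes, P450 signal in crypt was 2292 ± 907 CPM (SD, n = 5) untreated and 628 ± 135 (n = 5) at 180 ppm at day 8, and 2672 ± 440 (n = 5) and 1327 ± 453 (n = 5) at day 91. In villus it was 4435 ± 1189 (n = 5) and 1541 ± 230 (n = 4) at day 8, and 6043 ± 1165 (n = 4) and 2990.1 ± 1285 (n = 5) at day 91. The sums at 180 ppm were 27.4%, 49.7%, 34.7% and 49.5% of untreated in crypt day 8, crypt day 91, villus day 8 and villus day 91. Beside them, the enterocyte marker sum was 31.0%, 66.0%, 55.9% and 86.6% of untreated, and 10, 6, 6 and 6 of its 14 genes were lower, with Apoa1 and Apoa4, which package dietary lipid, and the glucose transporter gene Slc5a1 lower in all 4 sets. The median log2 fold change of the 14 markers was -2.15, -1.50, -0.89 and -1.02. The crypt base and proliferation markers stood at 134.5%, 150%, 83.1% and 108.4% of untreated, with 2 of 10 genes called, Mcm2 and Ephb2, both higher in villus at day 91. In the same order 3, 2, 1 and 4 of the 10 had an unadjusted p under 0.05, and DESeq2 called 0, 2, 0 and 3. By trend over dose 1 and 3 of them were called higher in crypt at days 8 and 91. In villus 2 were called lower by trend at day 8 and 4 higher at day 91. Paneth markers were lower for 3 of 7 genes in villus at day 8, with the high untreated villus of mouse 48 included, and for 1 at day 91. Of the 14 acinar markers 0 were called in any set by edgeR; 0 had an unadjusted p under 0.05 in any set, and DESeq2 called 0. Their sum ran from 9.21 to 148873 CPM over single untreated libraries. Hepatocyte markers (6 of 10 tested, Cps1 the most abundant) summed to group means of 12.1 to 40.3 CPM. Of 9 T cell and myeloid markers 4, 3, 4 and 3 were lower, the granzyme gene Gzma from 219 to 13.1 CPM in crypt at day 8 and from 326 to 54.0 CPM in villus at day 91. Of 8 smooth muscle and fibroblast markers 3 were lower and 3 higher in villus at day 91, Pdgfra among the latter (25.5 to 163.8 CPM). Of 4 goblet and Brunner gland markers 2, 0, 1 and 1 were lower and 1 higher, the last in villus at day 91, and of 7 enteroendocrine and tuft markers 1, 1, 0 and 1 lower and 1 higher in the same set. Of 6 plasma and B cell markers 1 was lower in crypt at day 8 and 1, Jchain, higher in villus at day 91, where the hepatocyte list also held 1 higher gene, Ttr. None of 3 adipocyte and 4 blood markers was called in any set by edgeR (0, 1, 1 and 0, and 2, 1, 0 and 0 with an unadjusted p under 0.05) or by DESeq2. The part of these cell markers in the P450 values was not tested, apart from a fit with acinar signal as a covariate, which called 16, 5, 15 and 14 P450 genes at 180 ppm in the same order of sets.

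No P450 gene was called by edgeR for a difference between compartments in the effect of 180 ppm, where 0.0158% and 0.3% of all genes were called at days 8 and 91. An unadjusted p under 0.05 was found for 17 P450 genes at day 8 and 5 at day 91, and DESeq2 called 0 at each day. With the mouse as a block in edgeR, Cyp2c55 and Cyp4a10 were called at day 8 and 0 P450 genes at day 91. Their effects were 2.13 and 5.09 higher in villus on the log2 scale (adjusted p = 0.0895 and 0.00335). The share of all genes called in this comparison under the block is not given here. Between days in untreated mice 0 P450 genes were called in crypt and 0 in villus (14 and 22 under an unadjusted p of 0.05; DESeq2 called 0 and 4, and the default form of the quasi-likelihood fit 0 and 3), against 0% and 2.45% of all genes. Day here is confounded with the age of the mice.

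Genes that work with P450s were read from lists of the same pathways. Of 18 sulfotransferases, hydrolases and other oxidases 9, 4, 4 and 5 were lower and 0 higher at 180 ppm in crypt day 8, crypt day 91, villus day 8 and villus day 91. Ephx2, the soluble epoxide hydrolase that hydrolyses epoxides made by CYP2C and CYP2J enzymes, fell in every set, from 1133 to 147 CPM, 1215 to 305 CPM, 1986 to 315 CPM and 2327 to 578 CPM in that order. Xdh, xanthine dehydrogenase, fell in every set as well, from 323 to 62.9 CPM in villus at day 91, and Ephx1 in 3 of them. Of 9 glucuronosyltransferases 3, 1, 0 and 1 were lower, with Ugt1a1, which conjugates bilirubin, at 299 and 94.2 CPM in crypt at day 8 (adjusted p = 1.35e-05).

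Several other lists held genes called in both directions. Of 16 glutathione transferases 1, 0, 0 and 1 were lower and 1, 0, 4 and 4 higher, Gsta1 rising in villus from 676 to 2851 CPM at day 8 and from 1199 to 5220 CPM at day 91 and Gsta2 from 279 to 1907 CPM at day 91. Of 15 PPAR-alpha targets 5, 2, 5 and 1 were lower and 0, 0, 1 and 3 higher, and Plin2, a lipid droplet protein, rose in villus at day 91 from 209.6 to 871 CPM. Of 16 nuclear receptor and AhR genes 4, 2, 3 and 1 were lower and 0, 0, 0 and 1 higher, Vdr, the vitamin D receptor, in every set (763 to 284 CPM in villus at day 91) and Nr1i2, which encodes PXR, at day 8 (189 to 87.3 CPM in villus, adjusted p = 0.00933). Of 8 genes for electron donors and haem 1, 0, 0 and 0 were lower and 0, 0, 1 and 1 higher; Alas1, the first enzyme of haem synthesis, was higher in villus at day 8 (14.8 to 43.1 CPM, adjusted p = 0.0514). Of 7 efflux transporters 2, 2, 1 and 2 were lower and 0, 1, 2 and 2 higher, with Abcb1a rising in villus from 126 to 490 CPM and Abcg5 falling from 86.9 to 14.4 CPM at day 91. Of 9 retinoid handling genes 2, 0, 0 and 1 were lower, and of 4 vitamin D targets 1, 0, 0 and 2, with 0 higher in either list. Rdh7 and Scarb1 were the 2 in crypt at day 8, and S100g, which buffers calcium, fell there from 1209 to 149 CPM. In the sets where a list had 0 genes called in either direction, those with an unadjusted p under 0.05 and those called by DESeq2 numbered 5 and 3 for glutathione transferases and 1 and 0 for electron donors in crypt at day 91, 2 and 2 for glucuronosyltransferases in villus at day 8, 2 and 1 for retinoid handling in each of these sets, and 1 and 1 and 3 and 1 for vitamin D targets.

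**Figure D5:**
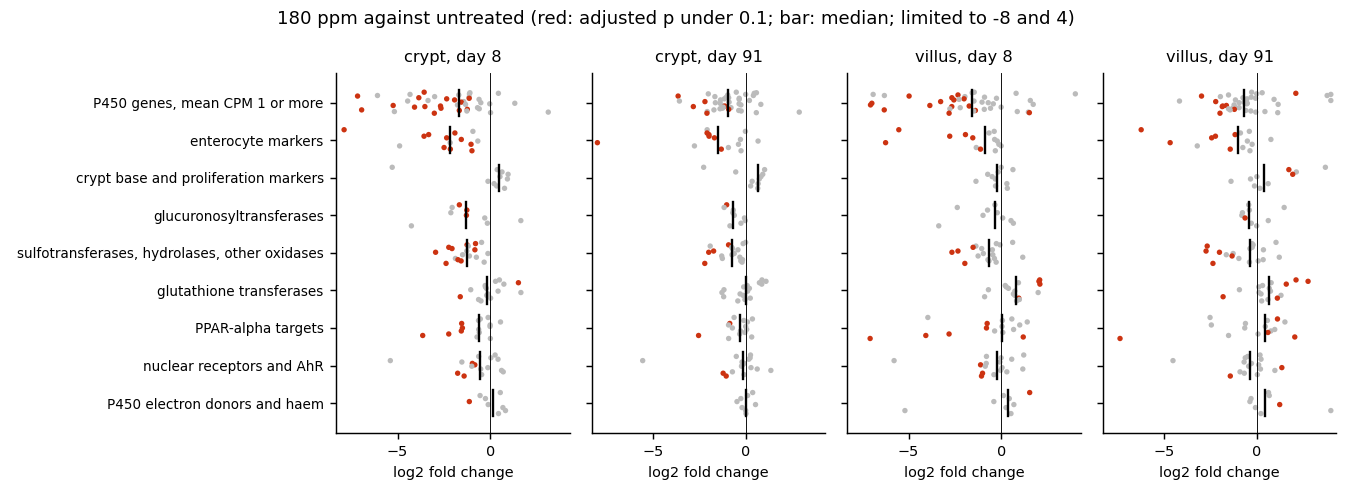
Log2 fold change at 180 ppm against untreated for each gene (point; red when adjusted p was under 0.1) of the 39 P450 genes with a mean of at least 1 CPM and of 8 other lists, in 4 panels for compartment and day; black bars are medians and values are limited to -8 and 4. The P450 medians were -1.70, -0.97, -1.57 and -0.68, the enterocyte marker medians -2.15, -1.50, -0.89 and -1.02, and glutathione transferases have red points above 0 in villus.

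Some P450 genes had further probes, which read another site of the same gene. Of 41 such probes 27 passed the filter, and 10 of them averaged at least 1 CPM. For the 11 results called at 180 ppm whose gene had a further probe at that level, that probe had the same direction in 11 and was called itself in 11. Rarer probes were not called where their gene's main probe was. That of Cyp2r1 (mean 0.738 CPM) gave 0.71 in villus at day 8 (adjusted p = 0.98), where the main probe gave -6.98. Those of Cyp2j13 in villus at day 91 and Cyp1a1 in crypt at day 8 (means 0.317 and 0.232 CPM) gave a log2 fold change of 0. Besides the second Cyp3a11 probe in crypt at day 91, given above, the second Cyp4a10 probe was called for a 180 ppm effect that differed between days in crypt (6.35 ± 1.54 SE, adjusted p = 0.0804; main probe 2.87, adjusted p = 0.391), at 6.29 CPM untreated and 0 counts in every exposed crypt at day 8, so that its fitted size depends on the prior count, and 14.5 and 6.28 CPM at day 91. The second Cyp4f16 probe was called at day 91 in crypt (-1.15, adjusted p = 0.0403) and villus (-1.06, adjusted p = 0.0442), where the main one was not.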

How the data were processed

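Crypt and villus RNA of 71 mice was counted with the TempO-Seq mouse panel in 71 crypt and 66 villus libraries. The deposited values were raw counts per probe, which the authors obtained by demultiplexing with bcl2fastq 2.17.1.14 and aligning reads to the probe sequences with Bowtie (version and probe build not given in the sources used here). Replicates were not pooled, and each library was mapped to its group by its labels.

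Counts were fitted in R 4.3.3 with edgeR 4.0.16 (limma 3.58.1) by the quasi-likelihood test with trended dispersion and TMM scaling, on 28 group means and the 26365 probes that passed filterByExpr. P-values were adjusted by the Benjamini-Hochberg procedure over all of them, and 0.1 was the threshold. A trend was the log2 change per step of the 7 ordered doses. CPM is counts per 1000000 of the TMM-scaled library size, standard errors are the absolute log2 fold change divided by the square root of F, and the prior count was 0.125. P-values measure the spread between mice.

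Genes named in the text were those called by a trend or at 180 ppm in any set, ordered by smallest adjusted p and up to 30, and the 10 with the highest mean CPM, with values by library for the first 8 of the order. For the other lists up to 3 genes each were named. The P450 genes, lists and tests were chosen with earlier results of these data known.

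Crypt and villus of a mouse carry the same number because they come from the same animal, so the numbers pair the libraries. Over the 66 mice with both, the correlation of their deviations from the group means had a median of 0.13 and ranged from -0.13 to 0.51, with 40 above 0.1.

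Alternatives were DESeq2 1.42.0 (its size factors alone, and its Wald test, with a local regression for the dispersion), the default form of the quasi-likelihood fit, no filter, a mean count of at least 10, all probes of a gene summed, counts thinned to 1463938 per library, a threshold of 0.05, covariates for acinar signal and total count, a mouse block, separate fits, and libraries left out. Covariate, block and leave-out fits kept the dispersion trend and scaling of all libraries. The tests were checked on simulated data.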

Additional observations from a re-analysis of the deposited data

Results flagged for a closer look

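Gaps between libraries were read with Dixon's ratio in 92 groups of 4 to 6 libraries, and 4 exceeded the 95% limit, where chance gives about 1 in 20. Cyp2b10 in untreated villus at day 8 was lowest in mouse 48 (321 CPM against 632 to 757 CPM in the other 4, ratio 0.79 on log2 CPM), the library with high Paneth markers. Cyp3a25 in untreated crypt at day 91 was highest in mouse 8 (474 against 191 to 242 CPM, ratio 0.739). Cyp3a11 in untreated villus at day 91 was lowest in mouse 7 (357 against 823 to 966 CPM, ratio 0.84), and Cyp2c55 in the same group was highest in mouse 6 (164 against 80.7 to 90.7 CPM, ratio 0.836). Both of these groups held 4 libraries, and their ratios lay just over the limit.

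By their main probes, 2 P450 genes were called for an effect of 180 ppm that differed between days, and Cyp4a10 was called in crypt by its second probe alone (6.35, adjusted p = 0.0804). The effect on Cyp3a11 in crypt was 3.96 higher on the log2 scale at day 91 than at day 8 (edgeR, adjusted p = 0.0673), with all 5 exposed crypts below the untreated ones at day 8 and overlapping groups at day 91; a second Cyp3a11 probe gave 1.69 and was not called (adjusted p = 0.501). The fitted difference of Cyp26b1 in villus was 11.5 (edgeR, adjusted p = 0.0852), on groups at 0 counts. Both calls were lost under several alternatives given below.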

How the results depend on the processing

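Counts of P450 genes called are compared here between settings, 1 choice changed at a time, except that DESeq2's Wald test changes the scaling, the dispersion and the test together. At 180 ppm the counts stayed within 1.5 times of those reported in crypt and villus at day 8 under every alternative run (10 to 18 genes), as did the trends at day 8 and in crypt at day 91 and the count in villus at day 8 at 60 ppm. With a threshold of 0.05, calls fell to 6 in crypt at day 8 at 60 ppm, to 9 and 7 in villus at day 91 at 60 and 180 ppm, to 21 for the villus trend of day 91, to 9 of the 17 calls at 0.1 to 20 ppm, and to 0 for the compartments at day 8 and for the crypt and villus differences between days. DESeq2's Wald test called 10 and 11 genes in crypt at day 91 at 60 and 180 ppm, 6 and 10 between untreated compartments at days 8 and 91, 4 between untreated villi of both days, and 2 in crypt and 0 in villus for a 180 ppm effect that differed between days. Its size factors alone gave 8 between compartments at day 91 and 0 for both differences between days. The default form of the quasi-likelihood fit gave 10 genes (8 lower, 2 higher) in crypt at day 91 at 60 ppm, 2 and 8 between compartments, 3 between untreated villi, and 0 for the villus difference between days. Separate fits per compartment and day gave 13 and 14 genes in crypt at day 91 at 60 and 180 ppm. At 180 ppm in that fit the 14 were all lower, and 9.32% of all genes were lower and 13.8% higher. A mean count of at least 10 left 18 genes for the villus trend of day 91, with 8 between compartments at day 91, 1 between untreated villi and 0 for the villus difference between days, where no filter also gave 0. Summed probes gave 10 between compartments at day 91, 1 between untreated villi, and 0 in crypt and 2 in villus between days. Thinned counts gave 0 for the crypt difference between days. Without the villus library of mouse 48 and the crypt library of mouse 49 there were 5 calls in crypt at day 8 at 60 ppm, 7 between compartments at day 8 and 0 for both differences between days. With the mouse as a replicate block, 8 and 13 genes were called between compartments at days 8 and 91, and 2 and 0 for a 180 ppm effect that differed between compartments. With the total count as a covariate 8 genes were called in crypt at day 91 at 60 ppm, and 0 in crypt and 4 in villus for a difference between days, while the acinar marker covariate left each of these counts within 1.5 times. The cause of these differences was not tested. Except where stated, the shares of all genes called under these alternatives are not given, so these counts are not set against a background.

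Leaving out 1 mouse at a time gave 5 to 11 calls in crypt at day 8 at 60 ppm and 8 to 15 and 7 to 14 in villus at day 91 at 60 and 180 ppm. It gave 0 to 2 and 2 to 5 calls between compartments at days 8 and 91, 0 to 1 for a compartment difference in the 180 ppm effect at day 91, 0 to 4 and 0 to 3 for crypt and villus differences between days, 0 to 1 between untreated villi, and 9 to 19 for the doses of 0.1 to 20 ppm summed. Of the 8 genes given by library, no log2 fold change at 180 ppm changed sign under any of these settings. Genes below 1 CPM rest on a few counts per library, and for those at 0 in a group the fitted fold depends on the prior count. Probes of close paralogs may share signal, which was not tested.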
